A study of Mus musculus with 18 samples.

Results

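The interferon response genes are the transcripts that cells switch on after sensing viral or endogenous nucleic acid or after binding an interferon, and 79 of them were followed here through duodenal crypts and the enteroids grown from those crypts. Members were chosen by name alone, as every gene whose symbol belongs to the Ifi, Isg, Oas, Gbp, Irf, Irgm, Iigp, Igtp or Gvin families or is one of a set of single genes that includes Mx1, Mx2, Stat2, Ddx58, Dhx58, Rsad2, Bst2, Usp18 and Zbp1. The 79 came out of 18838 genes listed in at least 1 of the 3 deposited tables, with 79 in the crypt table, 75 in the day 1 table and 70 in the day 3 table. A member entered the tests when its mean over the 6 libraries of a time point was at least 10 normalized counts, a level that 67 members reached in crypts, 55 in day 1 enteroids and 53 in day 3 enteroids. The filter kept 68 at 1 or more time points and 52 at all 3, and 11 were tested nowhere.

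The study set wild-type (WT, Mtgr1+/+) mice against littermates with a germline Mtgr1-/- genotype, in which the co-repressor MTGR1 (gene symbol Cbfa2t2) is lost from every tissue and not from the epithelium alone. Duodenal crypts from 3 young adult mice of each genotype were taken fresh and also grown as enteroids, which were collected 24 hours (day 1) and 72 hours (day 3) after plating, so each mouse gave 1 library per time point and 18 libraries were sequenced in all. Enteroids are epithelial cultures grown in Matrigel in a medium with EGF, Noggin and R-spondin, and the methods name no interferon among its additions. Mice of both sexes were used, and the female-specific transcript Xist was high in WT mouse 3 and Mtgr1-/- mouse 1 at all 3 time points and near 0 in the other mice.

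Interferons act through surface receptors, Janus kinases and STAT and IRF transcription factors. Type I and type III interferons signal through a complex of STAT proteins and IRF9, which binds the interferon-stimulated response element (ISRE), while interferon gamma signals through paired STAT proteins that bind the gamma-activated site (GAS). Intestinal epithelium responds chiefly to type III interferon, and part of its antiviral program is present without infection. The products include cytosolic nucleic acid sensors, the ubiquitin-like modifier ISG15, RNA-binding and RNA-degrading effectors, GTPases that act on pathogen-containing vacuoles, and IFITM proteins that block viral entry at membranes.

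The 16 libraries whose whole reads were recovered from the normalized values held between 22035316 and 28621990 reads, and the targeted gene did not separate the genotypes. Cbfa2t2 read 614, 523 and 595 normalized counts in WT crypts and 697, 466 and 534 in crypts labelled Mtgr1-/-, with adjusted p = 0.917, so its level does not check the labels, and below Mtgr1-/- means libraries so labelled. The stem cell gene Olfm4 did separate them in crypts, at 33032, 31199 and 25673 in WT and 512, 296 and 133 in Mtgr1-/-. The crypt library of WT mouse 3 stood apart from all the others in immune cell RNA, with 28871 summed normalized counts over the 9 of 11 T cell and intraepithelial lymphocyte markers listed, against 3033 and 3487 in the other WT crypts and 750 to 3362 in Mtgr1-/- crypts. In that library the 10 myeloid markers summed to 4419, against 313 to 813 in the other crypt libraries. Among enteroids the Mtgr1-/- mouse 3 libraries carried the most, with T cell sums of 718 at day 1 and 313 at day 3 and myeloid sums of 557 and 1079, while the other 10 enteroid libraries lay at or below 534 for T cells and 235 for myeloid markers. Mitochondrial transcripts took 13.4% of counts in WT crypt 3 and 11.7% in Mtgr1-/- crypt 3, against 6.24% to 6.91% in the other crypts. Stromal and endothelial markers summed to 723 in WT crypt 3 and to at most 161 in the other crypts. The 8 epithelial markers were all listed and summed to between 122150 and 346357.

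In fresh crypts few interferon response genes passed the adjusted limma test, at shares close to those of all genes, and their direction varied with the test. Of 67 members tested, 2 were lower and 0 higher at an adjusted p below 0.05 by limma, beside 3.15% lower and 1.58% higher of all 12980 genes tested. At an unadjusted p below 0.05 the numbers were 6 lower and 12 higher, beside 9.92% and 8.53% of all genes. The edgeR test of recovered reads called 1 member lower and 0 higher, beside 1.21% and 0.401% of all genes, and DESeq2 called 9 lower and 7 higher, beside 5.91% and 3.35%. The median log2 fold change of the members was 0.09, beside 0.01 for all genes tested.

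Both called genes were interferon-inducible GTPases. Gvin1, a very large GTPase on the minus strand of chromosome 7 (GRCm38, chr7:106156556-106215326), read 2287, 1995 and 2745 normalized counts in the 3 WT crypt libraries and 169.5, 150.3 and 119.9 in Mtgr1-/-. The groups were far apart, with a log2 fold change of -3.99 ± 0.17 (SE) and adjusted p = 0.000152. Gbp2, a guanylate-binding protein that coats vacuoles of intracellular microbes, read 106, 109.9 and 172 in WT and 34.9, 34.2 and 33.5 in Mtgr1-/-, again without overlap. Its log2 fold change was -1.85 ± 0.26 with adjusted p = 0.011, and the call was lost without WT mouse 1 (adjusted p = 0.0551) or WT mouse 2 (adjusted p = 0.0517), or with edgeR (adjusted p = 0.0549).

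The remaining 15 GTPases tested in crypts did not pass, and their values followed immune cell RNA for some genes and not for others. Gbp4 read 51.8, 47.5 and 344 in WT, where the third value belongs to the immune-rich library, and 45.2, 32.3 and 35.6 in Mtgr1-/-. Gbp9 showed the same pattern, at 75.7, 36.6 and 529.5 against 83.8, 75.1 and 95.5. So did the p200 family, DNA-binding proteins of the innate immune system that are abundant in leukocytes: Ifi203 read 56.5, 45.5 and 488 in WT and 21.7, 13.3 and 38.6 in Mtgr1-/-, and summed over its 10 members the family reached 1069 in WT mouse 3 against 33.3 to 106 in the other 5 crypt libraries. In crypts 6 of these members were tested and at days 1 and 3 none reached the level to be tested. Among the GTPases, Igtp ran the other way, at 2790, 2419 and 703 in WT, with the lowest value in the immune-rich library. Irgm2 (1830, 1457 and 679) and Irgm1 (1755, 1831 and 1089) were also lowest among WT crypts in that library. The part of immune cells in these values was not tested, and in bulk RNA fewer cells of a type and less RNA per cell cannot be told apart.

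Antiviral effectors in crypts lay mostly above WT without passing the adjusted test. Of the 17 tested, 16 lay above 0 on the log2 scale (median 0.67), beside 6660 of all 12980 genes. By limma 7 were higher at an unadjusted p below 0.05, beside 8.53% of all genes. Ifi44 came closest, at 331, 335 and 131 in WT and 1125, 575 and 822 in Mtgr1-/- (log2 fold change 1.73 ± 0.41 (SE), adjusted p = 0.0681). Isg15 read 499, 745 and 307 against 1131, 806 and 1032, with a log2 fold change of 1.01 ± 0.31 and adjusted p = 0.137. The genotypes did not overlap for either gene, but neither passed. STAT, IRF and sensor members ran from -1.98 ± 0.85 for Irf4, a lymphocyte factor that was highest in the immune-rich library, to 0.73 ± 0.20 for Dhx58, and the lowest adjusted p among these 15 was 0.103, for Dhx58.

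One day after plating the picture was different, and interferon response genes were higher in Mtgr1-/- enteroids across nearly every role. At day 1, 40 of 55 members tested were higher and 5 lower, beside 30.0% higher and 28.9% lower of all 12587 genes tested, so a large share of the whole transcriptome was also called. The median log2 fold change was 1.62 for the members and -0.01 for all genes. At day 3, 40 of 53 were higher and 5 lower, beside 29.9% higher and 29.1% lower of all 12782 genes, with medians of 1.27 and 0.0026. The 2 days came from the same mice, and 37 of the 40 members higher at day 1 were also higher at day 3 (92.5% of each list), while the 5 lower members were the same genes. Gbp2, Irgm1 and Mx2 were called higher at day 1 alone and Gbp3 and Gbp9 at day 3 alone, a difference that the test between the days did not show for any member.

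**Figure D1:**
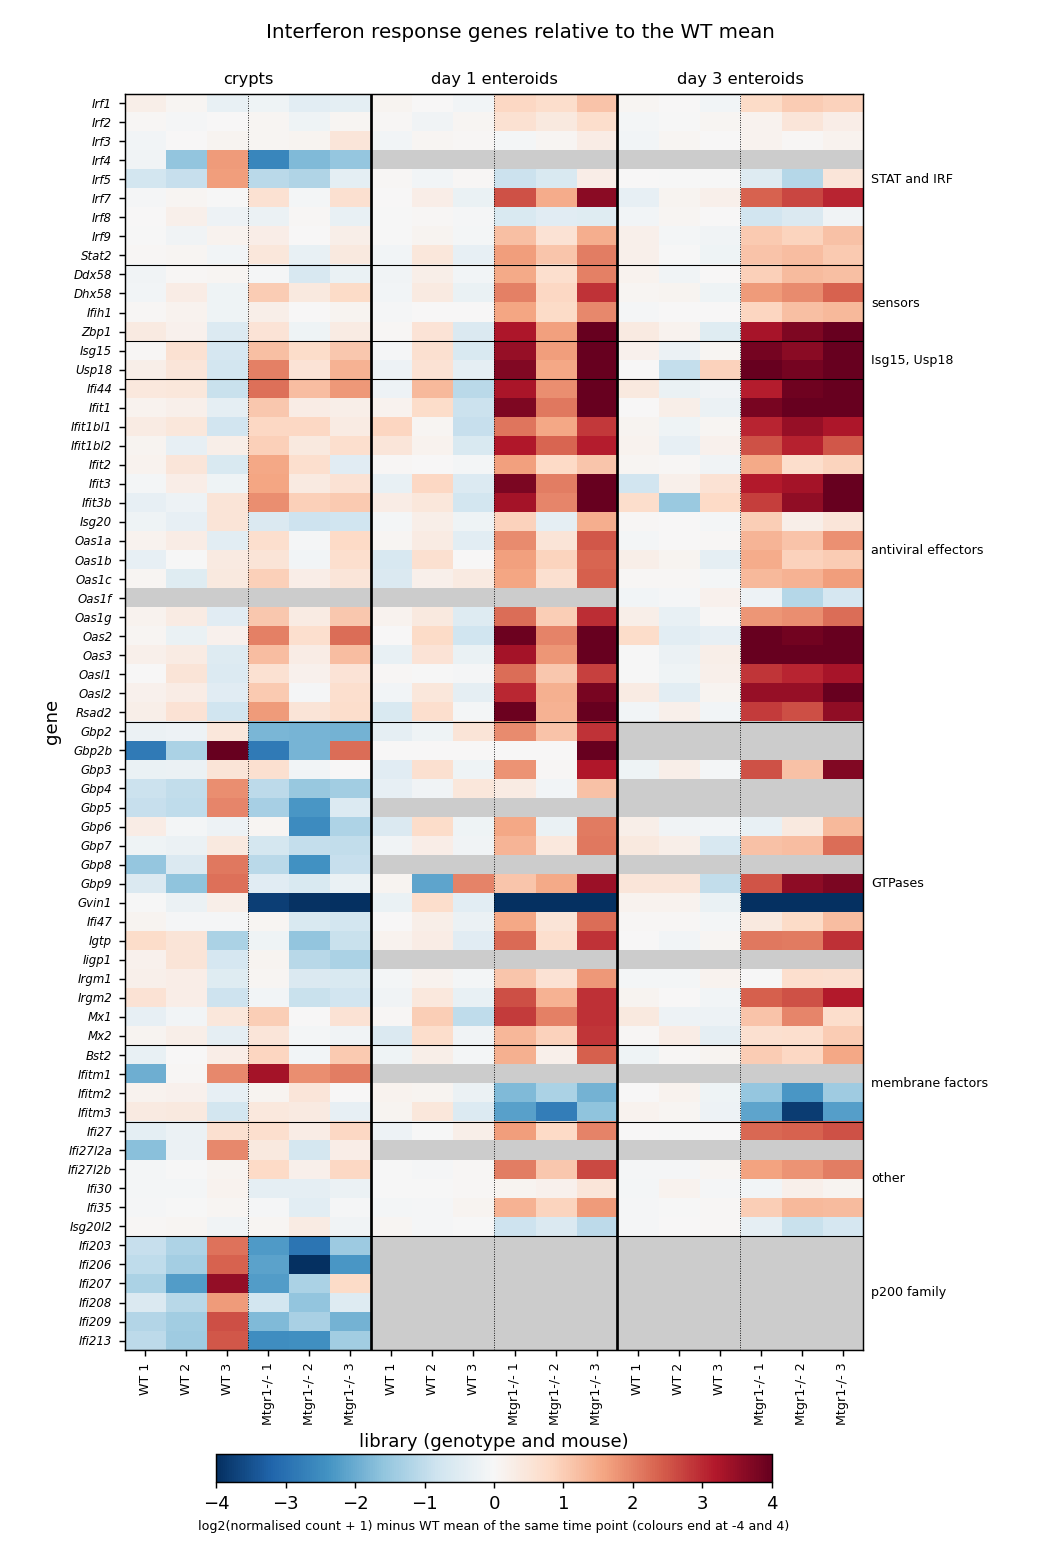
Each row is 1 of 66 of the 68 members tested at 1 or more time points, grouped by role, and each column is 1 of the 18 libraries. Color gives log2(normalized count + 1) minus the WT mean of the same time point, and gray marks a member not tested then. The red blocks under Mtgr1-/- at days 1 and 3 span sensors, effectors and most GTPases, with Gvin1, Ifitm2 and Ifitm3 in blue.

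Leaving out Mtgr1-/- mouse 3, the enteroid donor with the most immune cell RNA, left 35 members higher and 5 lower at day 1 and 36 higher and 6 lower at day 3. Size of the response differed among the mice, since over the 40 members higher at day 1 the median log2 distance from the WT mean was 2.03, 1.02 and 2.84 in Mtgr1-/- mice 1, 2 and 3. Mouse 2 was the lowest of the 3 for all 40 and mouse 3 the highest for 38. By day 3 the medians of those 40 members had drawn together at 1.73, 1.89 and 2.31. For the 40 members higher at day 3 they were 1.93, 1.92 and 2.42. The WT libraries then lay between 0.0017 and 0.06, near 0 because distances were taken from the WT mean. Scaling each library to the same sum of normalized counts (CPM) in place of the deposited factors moved the median of all genes by -0.32 at day 1 and -0.20 at day 3 and left 37 and 38 members higher and 5 lower on each day. The same scaling turned the split over all genes from 3776 higher and 3637 lower into 2206 and 5588 at day 1, and from 3826 and 3719 into 2755 and 5081 at day 3.

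**Figure D2:**
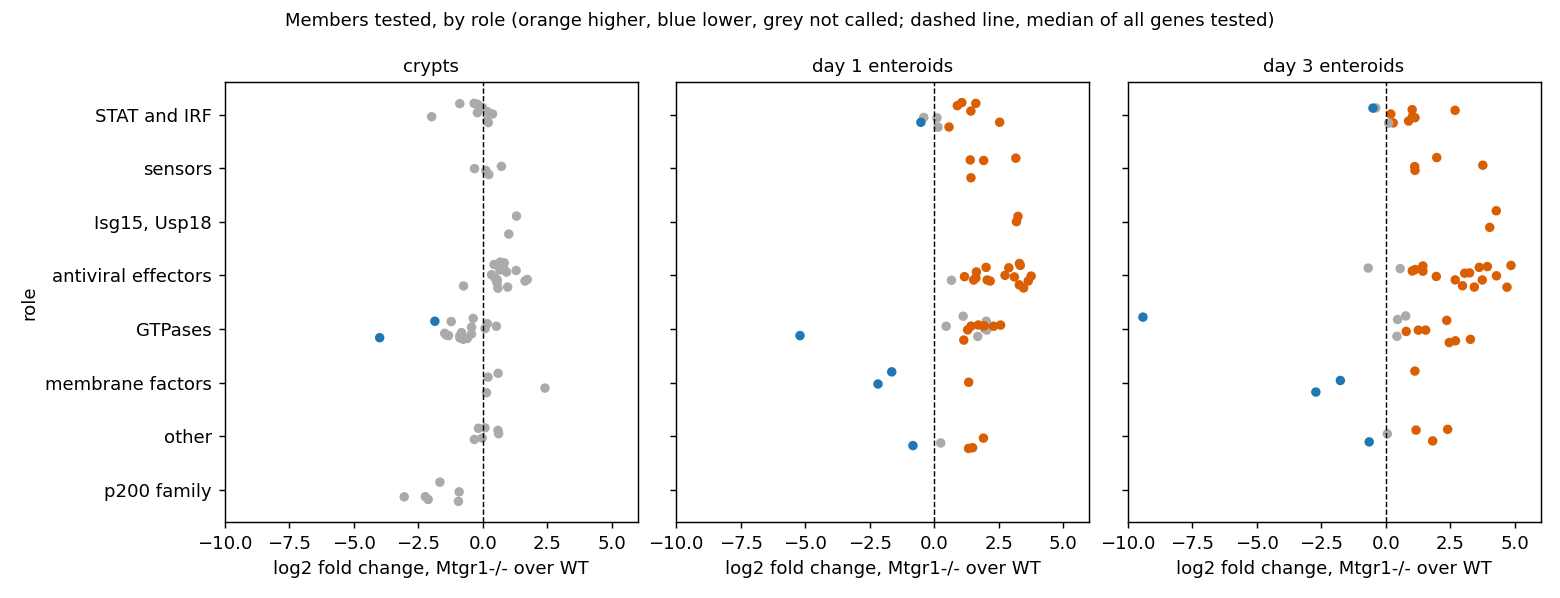
Horizontal axis, log2 fold change of Mtgr1-/- over WT for each member tested; vertical axis, role, with points spread within a row only to show them. Orange points were higher and blue points lower at an adjusted p below 0.05, gray points were not called, and the dashed line is the median of all genes tested. In crypts 2 points are blue, and at days 1 and 3 the antiviral effectors hold 16 orange points each.

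Receptors and kinases that carry the signal were higher as well. Nothing in the list of 11 interferon genes was measurable, since Ifng was listed in crypts only, at 0.94 to 12.7 normalized counts, and Ifnz at no more than 3.66 in enteroids, and the other 9 were listed at no time point. All 9 receptor and Janus kinase genes were higher in Mtgr1-/- at day 1, beside 30.0% of all genes, with a median log2 fold change of 0.97. All 9 were higher again at day 3, beside 29.9% of all genes, with a median of 0.82. Ifnlr1, the specific chain of the type III receptor, read 413, 353 and 295 in WT and 717, 595 and 761 in Mtgr1-/- at day 1 and 294, 330.4 and 267 against 715, 637 and 525 at day 3, and its log2 fold changes were 0.97 ± 0.16 (adjusted p = 0.00152) and 1.07 ± 0.14 (adjusted p = 0.000513). Jak2, a kinase bound to the interferon gamma receptor, read 2446, 2124 and 2244 against 5755, 4163 and 6037 at day 1 (log2 fold change 1.21 ± 0.15, adjusted p = 0.0005). In crypts the lowest adjusted p in this list was 0.0826, for Ifnlr1.

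STAT and IRF transcription factors split by member. Stat2, which takes part in type I and type III signaling, read 486, 723 and 419.9 in WT and 1691, 1150.2 and 2185 in Mtgr1-/- at day 1 (log2 fold change 1.61 ± 0.27 (SE), adjusted p = 0.0017) and 550.3, 475 and 425 against 1055, 1134 and 990.3 at day 3 (1.14 ± 0.12, adjusted p = 0.000144). Irf9, the DNA-binding subunit of the same complex, rose on those days by 1.07 ± 0.21 and 1.04 ± 0.12. Irf7, which amplifies type I interferon production and is itself induced by interferon, moved most in this group, from 686, 813 and 569.9 in WT to 3951, 1899 and 8340.4 in Mtgr1-/- at day 1 (2.54 ± 0.46, adjusted p = 0.00249) and from 176, 237 and 253 to 1137, 1392 and 1806 at day 3 (2.69 ± 0.20, adjusted p = 3e-05). Every Mtgr1-/- value of these 3 genes lay above every WT value of the same day.

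Not all of the family followed. Irf1, an early target of interferon gamma, was higher by 0.90 ± 0.12 at day 1 and 0.89 ± 0.09 at day 3, and Irf2, its antagonist at many promoters, by 0.57 ± 0.11 and 0.29 ± 0.10, but the day 3 call of Irf2 was lost with any of 5 of the 6 libraries left out, under CPM scaling (adjusted p = 0.341) and with edgeR (0.0539) or DESeq2 (0.0693). Irf3, which is activated by phosphorylation and is not induced by interferon, read 1388, 1579.8 and 1545 in WT and 1436, 1598 and 1849 in Mtgr1-/- at day 1 and was called on neither day (adjusted p = 0.435 and 0.238). Irf5 (adjusted p = 0.342 and 0.413) was not called either. Irf8, a regulator of myeloid cells and of epithelial interferon responses, fell: 1536, 1609 and 1484 in WT and 1017, 1123 and 1099 in Mtgr1-/- at day 1 (-0.52 ± 0.08, adjusted p = 0.00154), and 1486, 1687 and 1633 against 942, 1083 and 1441 at day 3 (-0.49 ± 0.15, adjusted p = 0.0215), where the call was lost without WT mouse 2 (adjusted p = 0.0749) or WT mouse 3 (0.0655).

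**Figure D3:**
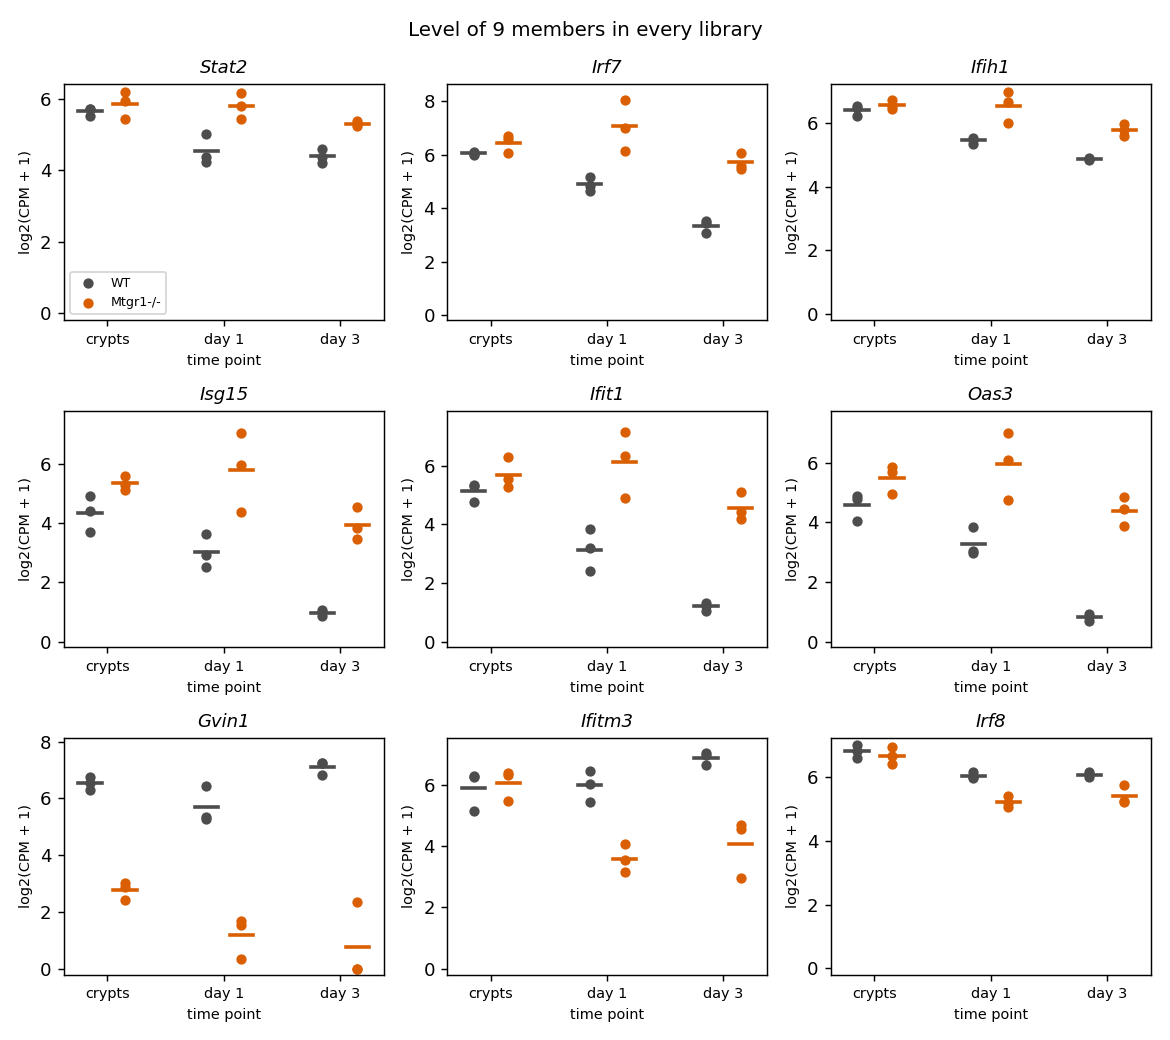
Vertical axes, log2(CPM + 1), where CPM is the library's normalized count scaled to a common sum; horizontal axes, time point. Points are the 3 WT (gray) and 3 Mtgr1-/- (orange) libraries and bars their means, for 9 members. Isg15, Ifit1 and Oas3 step down in WT from crypts to day 3, whereas Gvin1 and Ifitm3 stay high in WT and sit far lower in Mtgr1-/- enteroids.

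All 4 nucleic acid sensors were higher on both days, beside 30.0% of all genes at day 1 and 29.9% at day 3. Ddx58, which encodes the RNA sensor RIG-I, read 567, 727 and 580.0 in WT and 1764, 994 and 2503 in Mtgr1-/- at day 1 (1.4 ± 0.30, adjusted p = 0.00523). Ifih1 encodes MDA5, a sensor of long double-stranded RNA, and was higher by 1.43 ± 0.26 at day 1 and 1.13 ± 0.12 at day 3, and Dhx58, which encodes their regulator LGP2, by 1.92 ± 0.46 and 1.98 ± 0.20. Zbp1, a sensor of Z-form nucleic acid that can start necroptosis, read 19.7, 16.9 and 10.7 in WT and 158, 215 and 316 in Mtgr1-/- at day 3 (3.77 ± 0.32, adjusted p = 5.96e-05), the widest gap of the sensors. Among 15 further sensing and adaptor genes tested, 7 were higher and 1 lower at day 1, beside 30.0% and 28.9% of all genes, and 10 were higher and 2 lower at day 3, beside 29.9% and 29.1%. Ticam1, the adaptor of TLR3, and Ikbke, a kinase that activates IRF3 and IRF7, were among the higher ones, by 1.06 ± 0.12 and 1.07 ± 0.12 at day 1. Cgas, the cytosolic DNA sensor, went the other way, from 337, 435 and 414 in WT to 121, 218 and 99.3 in Mtgr1-/- at day 1 (-1.50 ± 0.28, adjusted p = 0.00284) and from 462, 420.4 and 428 to 307, 152 and 248 at day 3 (-0.94 ± 0.23, adjusted p = 0.00896). Mavs, the mitochondrial adaptor of RIG-I and MDA5, was higher by 0.48 ± 0.17 and 0.54 ± 0.13 on the 2 days (adjusted p = 0.039 and 0.00915).

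Isg15 and Usp18 showed some of the widest gaps of all. Isg15, a ubiquitin-like protein conjugated to newly made proteins, read 164, 260.3 and 111 in WT and 1890.3, 536 and 4058 in Mtgr1-/- at day 1 (3.25 ± 0.67, adjusted p = 0.00431) and 26.0, 19.6 and 24.2 against 344, 293 and 603 at day 3 (4.03 ± 0.28, adjusted p = 2.42e-05). Usp18 removes ISG15 from its targets and restrains the type I receptor, and it read 6.27, 2.67 and 12.6 against 117, 99.4 and 226 at day 3 (4.29 ± 0.51, adjusted p = 0.000295). Neither gene overlapped between genotypes on either day. Of 12 other negative regulators tested, 5 were higher and 1 lower on each day, beside 30.0% higher and 28.9% lower of all genes at day 1 and 29.9% and 29.1% at day 3. Socs1, which binds and blocks Janus kinases, read 9.86, 8.91 and 11.6 in WT and 23.9, 26.8 and 25.8 in Mtgr1-/- at day 3 (adjusted p = 0.00698), and Ptpn2, a phosphatase of Janus kinases and STAT proteins, was lower, with log2 fold changes of -0.27 ± 0.09 at day 1 and -0.23 ± 0.08 at day 3.

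RNA-directed antiviral effectors were the largest group of members that rose. At day 1, 16 of 17 tested were higher, beside 30.0% of all genes, and at day 3, 16 of 18, beside 29.9%. Those called rose by 1.17 to 3.76 on the log2 scale at day 1 and by 1.03 to 4.86 at day 3. Over all effectors tested the medians were 2.75 and 3.02. None was lower, and each of the 16 was without overlap between the genotypes on both days. The share of all genes without overlap is not given, so that last count has no background. Isg20, a 3′ exonuclease, was the one not called at day 1 (adjusted p = 0.215), and at day 3 Isg20 and Oas1f (adjusted p = 0.133) were not called.

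Within this group the oligoadenylate synthetases, which make the messenger that activates RNase L, led at day 3. Oas3 read 168, 306 and 173 in WT and 2100.2, 699.8 and 3929.8 in Mtgr1-/- at day 1 (3.11 ± 0.57, adjusted p = 0.00253) and 17.9, 15.1 and 21.3 against 542, 402 and 757 at day 3 (4.86 ± 0.25, adjusted p = 9.46e-06). Oas2 read 22.9, 38.5 and 12.6 against 356, 91.0 and 965 at day 1 (3.76 ± 0.79, adjusted p = 0.00479) and differed by 4.70 ± 0.49 at day 3 (adjusted p = 0.000165). The gap was present in every mouse, but the Mtgr1-/- values of Oas2 at day 1 were widely spread, with mouse 2 lowest and mouse 3 highest. Oas1a and Oas1g, near-identical neighbors between which reads can be split, summed to 1544, 1821 and 1039 in WT and 5926, 2381 and 9374 in Mtgr1-/- at day 1, without overlap.

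Oasl2, an OAS-like protein, read 640.2, 953 and 536 in WT and 5613, 1846 and 9561 in Mtgr1-/- at day 1 (2.75 ± 0.54, adjusted p = 0.00343).

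IFIT proteins bind foreign RNA caps and block translation. Ifit1 read 202, 306 and 101 in WT and 2461, 789 and 4386 in Mtgr1-/- at day 1 (3.46 ± 0.63, adjusted p = 0.00244) and 31.4, 36.5 and 26.1 against 446, 604 and 915 at day 3 (4.29 ± 0.26, adjusted p = 1.57e-05). Ifit3, which stabilizes IFIT1, read 32.9, 72.9 and 27.7 against 559, 169.7 and 1475 at day 1 (3.65 ± 0.73, adjusted p = 0.00374). Its close copy Ifit3b differed by 3.31 ± 0.66 (adjusted p = 0.00374), and the sum of both, in which the split of reads between them plays no part, did not overlap on any of the 3 time points. Rsad2, which encodes viperin, an enzyme that makes a chain-terminating nucleotide, read 21.0, 52.1 and 31.0 in WT and 508, 87.2 and 857 in Mtgr1-/- at day 1 (3.34 ± 0.78, adjusted p = 0.00733) and 9.86, 12.5 and 9.68 against 79.6, 68.6 and 135 at day 3 (2.98 ± 0.31, adjusted p = 0.00016). Ifit1bl2, an IFIT1-like protein, read 553, 403 and 573 against 2924, 4277 and 2796 at day 3 (2.70 ± 0.19, adjusted p = 2.68e-05). Oas2, Ifit3, Ifit1, Rsad2 and Ifit3b made up the 5 largest rises among members at day 1.

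GTPases divided between a majority that was higher and Gvin1. Of 14 tested at day 1, 8 were higher, by 1.15 to 2.57, and 1 lower, beside 30.0% and 28.9% of all genes. At day 3, 7 of 11 were higher and 1 lower, beside 29.9% and 29.1%. Irgm2, an immunity-related GTPase that regulates its family on vacuoles and Golgi membranes, read 60.0, 56.1 and 51.3 in WT and 296, 332 and 511 in Mtgr1-/- at day 3 (2.71 ± 0.22, adjusted p = 4.47e-05), and Igtp, of the same family, read 54.7, 49.9 and 57.1 against 234, 229.7 and 414 (2.37 ± 0.24, adjusted p = 0.00014). Irgm1 was called at day 1 (1.15 ± 0.26, adjusted p = 0.00632) and missed the threshold at day 3 (0.44 ± 0.18, adjusted p = 0.0708). Gbp2, lower in Mtgr1-/- crypts, read 9.15, 10.4 and 17.6 in WT and 46.6, 27.5 and 94.8 in Mtgr1-/- at day 1, so it was then higher (1.97 ± 0.49, adjusted p = 0.00958), and at day 3 its levels of 3.59, 1.78 and 0.97 against 12.5, 9.94 and 23.6 were too low to be tested.

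Gvin1 stayed lower at all 3 time points and ended near 0. It read 1001, 1945 and 888 in WT and 8.16, 53.1 and 69.5 in Mtgr1-/- at day 1 (-5.20 ± 0.72, adjusted p = 0.00083) and 3591, 3609.8 and 2701 against 0, 0 and 111 at day 3 (-9.41 ± 1.60, adjusted p = 0.00163). Very large GTPase copies lie side by side at this locus and reads can be split among them, so the sum over Gvin1 and its listed neighbors Gm4070, Gm18853 and Gm8995 is also given. Together they read 2622, 2278 and 5026 in WT and 262, 171 and 282 in Mtgr1-/- crypts, and 3859, 3702 and 3005 against 164, 111 and 137 at day 3. In Mtgr1-/- mice 1 and 2, where Gvin1 itself was at 0 at day 3, Gm4070 held 163 and 109 of those counts, beside 86.4 to 297 in WT. On the log2 scale the summed gap was -3.73 in crypts, -5.11 at day 1 and -4.68 at day 3, so at day 3 it was smaller than the gap of Gvin1 alone, and the groups still did not overlap at any time point.

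Membrane restriction factors were the other exception. Ifitm3, which stops enveloped viruses from fusing in endosomes, read 1602, 1998 and 998 in WT and 328, 216 and 484 in Mtgr1-/- at day 1 (-2.18 ± 0.33, adjusted p = 0.0012) and 3077, 2969 and 2417 against 644, 199.8 and 614 at day 3 (-2.71 ± 0.40, adjusted p = 0.000848). Its neighbor Ifitm2 read 1771, 1739 and 1374 against 471, 673 and 435 at day 1 (-1.65 ± 0.18, adjusted p = 0.000355) and differed by -1.76 ± 0.22 at day 3 (adjusted p = 0.000387). In crypts neither was called, at 1913, 1923 and 881 in WT and 1982, 1889 and 1177 in Mtgr1-/- for Ifitm3. Bst2, which encodes tetherin, a protein that holds budding virions at the cell surface, went up instead, by 1.34 ± 0.47 at day 1 (adjusted p = 0.0409) with overlapping groups and by 1.13 ± 0.20 at day 3 (adjusted p = 0.00174) without overlap.

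Names that match the rule without a settled antiviral role behaved variously. Ifi27l2b, a small mitochondrial or membrane protein induced by interferon, read 4827, 4706 and 5033 in WT and 19863, 10193 and 29981 in Mtgr1-/- at day 1 (1.91 ± 0.33, adjusted p = 0.00215), and Ifi27 and Ifi35 were higher on both days. Ifi30, a lysosomal thiol reductase, was not called on either day (adjusted p = 0.07 and 0.607). Isg20l2, which shares a name with Isg20 but is a nucleolar exonuclease of ribosome assembly, read 1836, 1662 and 1696 in WT and 968, 1158 and 834 in Mtgr1-/- at day 1 (-0.82 ± 0.13, adjusted p = 0.00127) and was lower at day 3 too (-0.64 ± 0.13, adjusted p = 0.00332).

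Interferon-stimulated genes outside the naming rule moved in the same direction. Of 58 listed, 43 of 55 tested were higher and 3 lower at day 1, beside 30.0% and 28.9% of all genes. At day 3, 41 of 52 were higher and 3 lower, beside 29.9% and 29.1%. In crypts 2 of 57 were higher and 2 lower, beside 1.58% and 3.15%. The members of this list were drawn up with earlier results of the study in view, so the counts are a description. Apol9a, an apolipoprotein L of mice, read 18.8, 17.8 and 28.1 in WT and 579, 455 and 835 in Mtgr1-/- at day 3 (4.77 ± 0.26, adjusted p = 1.08e-05), and Rtp4, a negative regulator of the type I response, read 40.3, 30.3 and 32.9 against 468, 484 and 788 (4.0 ± 0.23, adjusted p = 1.19e-05). Ido1, the tryptophan-degrading enzyme that interferon gamma induces, went down with Gvin1, at 518, 455 and 196 in WT and 0.94, 7.61 and 15.2 in Mtgr1-/- crypts (-5.80 ± 0.80, adjusted p = 0.0107) and 82.3, 90.6 and 41.9 against 1.17, 2.84 and 7.72 at day 1 (-4.05 ± 0.58, adjusted p = 0.000921).

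Sequence just upstream of the gene starts can hold the elements that STAT and IRF proteins recognize. It is shown for 7 members that were picked by hand and not by a rule. RefSeq promoter windows (GRCm38.p6, 250 bases before to 50 bases after each start) were on hand for 56 of the 79 members and were searched on both strands for the ISRE core GAAANNGAA and for the GAS core TTCNNNGAA. The ISRE core was found in 35 of the 56 members (62.5%), beside 9.76% of the 27025 genes in the table, and the GAS core in 14 (25.0%), beside 9.55%. Both were present in 8 members, and in 2 windows a match of one shared bases with a match of the other. The stretches below give the 120 bases before the RefSeq start, 5′ to 3′ on the gene's own strand, with motif matches in capitals.
Isg15, chr4:156200819-156200938, minus strand: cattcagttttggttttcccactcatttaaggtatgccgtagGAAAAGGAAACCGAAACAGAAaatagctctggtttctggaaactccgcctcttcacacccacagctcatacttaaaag
Ifit1, chr19:34640769-34640888, plus strand: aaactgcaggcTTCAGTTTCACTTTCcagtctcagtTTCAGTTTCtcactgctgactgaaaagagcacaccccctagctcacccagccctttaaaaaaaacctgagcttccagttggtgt
Ifit3, chr19:34583409-34583528, plus strand: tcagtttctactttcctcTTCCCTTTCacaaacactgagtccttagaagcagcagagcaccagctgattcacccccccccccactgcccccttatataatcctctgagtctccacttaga
Oas3, chr5:120777660-120777779, minus strand: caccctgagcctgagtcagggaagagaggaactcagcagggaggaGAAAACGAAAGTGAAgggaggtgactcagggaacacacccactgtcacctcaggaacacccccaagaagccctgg
Rsad2, chr12:26456453-26456572, minus strand: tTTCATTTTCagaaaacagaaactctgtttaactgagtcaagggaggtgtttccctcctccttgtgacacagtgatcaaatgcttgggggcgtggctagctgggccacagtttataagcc
Ifitm2, chr7:140955962-140956081, minus strand: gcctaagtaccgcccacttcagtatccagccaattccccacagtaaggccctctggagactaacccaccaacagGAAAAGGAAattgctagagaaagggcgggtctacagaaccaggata
Irf1, chr11:53769894-53770013, plus strand: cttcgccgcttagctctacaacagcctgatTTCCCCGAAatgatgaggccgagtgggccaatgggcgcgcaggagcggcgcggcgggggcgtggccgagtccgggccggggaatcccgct

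Isg15, Ifit1, Ifit3, Oas3 and Rsad2, all among the largest rises at day 1 or day 3, carry the ISRE core, as overlapping copies in Isg15, Ifit1 and Oas3 and as a single whole copy in the stretches of Ifit3 and Rsad2. Oas2, Usp18 and Ifit3b were also among those rises and are not shown. Ifitm2 carries a copy of the ISRE core too, although it fell, and the Irf1 stretch carries a GAS core in its place. Irf1 has another RefSeq start, and the 120 bases before it (chr11:53770353-53770472) hold neither motif. Of the members higher at day 1 that had a window, 22 of 30 held the ISRE core, as did 2 of the 4 that were lower and 2 of the 6 that were not called. At day 3 those numbers were 21 of 29, 2 of 4 and 1 of 6. By role the core was found in 8 of 9 GTPases, 11 of 16 antiviral effectors, 8 of 9 p200 genes and 2 of 9 STAT and IRF genes. A match is a description of the letters, and binding was not measured.

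**Figure D4:**
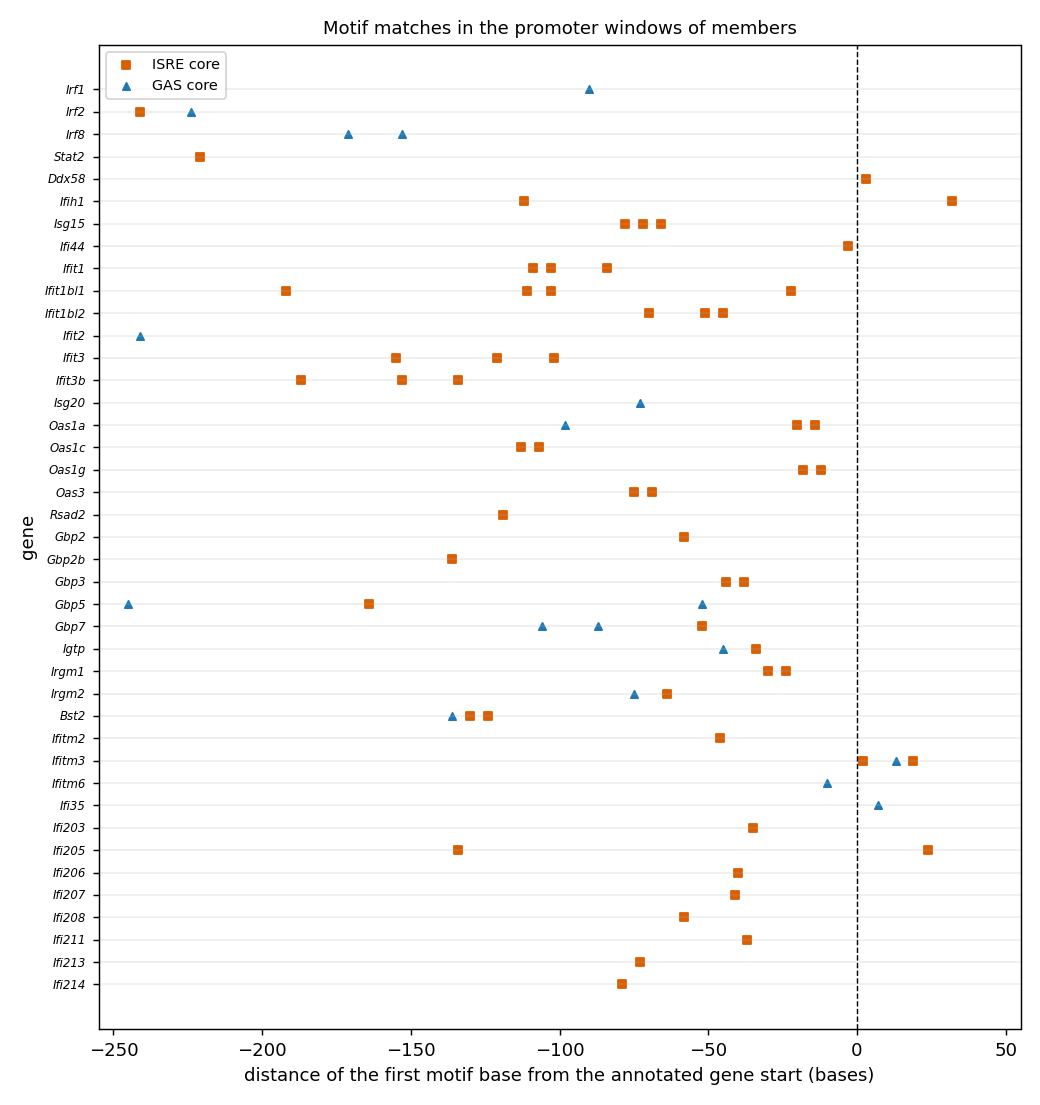
Horizontal axis, distance in bases from the annotated gene start to the first base of each motif match; rows, the 41 members with at least 1 match, ordered by role. Squares are ISRE core matches and triangles GAS core matches on either strand. Most matches of effector genes lie upstream of the start, where Isg15 and Ifit1 each show 3 ISRE core matches.

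Whether the genotype difference itself changed as crypts became enteroids was tested in 1 joint model, in which libraries of 1 mouse were allowed to correlate, for the 61 members measured highly enough. From crypts to day 1 the difference moved up for 32 members and down for 3, beside 19.4% up and 20.0% down of all 12937 genes tested, and the median change was 1.51 for members and 0.02 for all genes. From crypts to day 3 it moved up for 26 and down for 4, beside 16.3% and 14.4%. From day 1 to day 3 it moved for 0 members in either direction by limma, beside 0.0232% up and 0.00773% down of all genes, with 3 up and 1 down at an unadjusted p below 0.05 (4.51% and 3.27% of all genes), and no other tool was run on this comparison. The upward count from crypts to day 1 was 19 without Mtgr1-/- mouse 3 and 20 without WT mouse 1, and from crypts to day 3 it was 16 without WT mouse 1 or WT mouse 2, while the downward count to day 3 was 2 without any 1 of the WT mice.

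Gbp2 changed most from crypts to day 1, by 3.82 ± 0.63 on the log2 scale (adjusted p = 0.00103), and changed sign from lower to higher in Mtgr1-/-. Ifit1 changed by 2.93 ± 0.70 (adjusted p = 0.00549) and Zbp1 by 2.93 ± 0.76 (adjusted p = 0.0078), with crypt differences of 0.54 ± 0.26 and 0.24 ± 0.28 before. To day 3 the largest fitted changes were those of Gvin1, by -5.42 ± 1.78 (adjusted p = 0.0322), Gbp2, by 4.24 ± 0.63 (adjusted p = 0.000566), and Oas3, by 3.94 ± 0.67 (adjusted p = 0.00132). The Gvin1 value rests on readings of 0 in Mtgr1-/- mice 1 and 2 at day 3, and for the sum of Gvin1 and its 3 neighbors the change was -0.95. The Gbp2 value to day 3 rests on day 3 levels that were too low to be tested at that time point alone, since the joint filter averaged over 18 libraries. Ifitm3 and Ifitm2 moved down on both, by -2.32 ± 0.60 and -1.85 ± 0.32 to day 1.

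Levels within each genotype are described next for both sides of the comparison. In WT the members were lower in culture. The median ratio of a member's day 1 to its crypt level in the same mouse, in CPM, was 0.387 ± 0.0735 (SD, n = 3), and of its day 3 to its crypt level 0.142 ± 0.050 (SD, n = 3), over the 67 members tested in crypts. The same ratio over all 12980 genes was 1.14 and 1.21. In Mtgr1-/- the members stood at 0.913 ± 0.408 (SD, n = 3) of their crypt level at day 1, with mouse values of 0.707, 0.649 and 1.38, and at 0.427 ± 0.191 (SD, n = 3) at day 3, beside 0.888 and 1.02 over all genes. These ratios cross tables that were normalized separately and are given without a test. Immune cell RNA was also lower in culture, with WT T cell sums of 3033 to 28871 in crypts, 131 to 534 at day 1 and 21.5 to 41.6 at day 3, and myeloid sums of 623 to 4419, 132 to 235 and 102 to 141. Its part in the lower member levels was not tested. The ratios in WT were 0.485 ± 0.0371 and 0.277 ± 0.0187 (SD, n = 3) over the 4 sensors.

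Counted by gene, 50 of the 67 members were lower at day 1 than in crypts in all 3 WT mice and 55 at day 3. These were 74.6% and 82.1% of members, beside 26.6% and 25.2% of all 12980 genes. In all 3 Mtgr1-/- mice 19 members were lower at day 1 and 50 at day 3. These were 28.4% and 74.6% of members, beside 46.0% and 23.4% of all genes. Isg15 stood at 19.9, 29.3 and 11.9 CPM in WT crypts, and day 1 and day 3 enteroids of the same mice held 6.57, 11.3 and 4.68 and then 1.10, 0.815 and 0.999. In Mtgr1-/- it went from 47.0, 33.9 and 38.2 CPM in crypts through 60.7, 19.7 and 130.3 to 13.2, 9.95 and 22.2. Its level was lower in every WT mouse at each step, whereas at day 1 it was above the crypt level in Mtgr1-/- mice 1 and 3 and below it in mouse 2. The antiviral effectors went from a WT median of 0.419 ± 0.102 (SD, n = 3) of the crypt level at day 1 to 0.101 ± 0.0341 (SD, n = 3) at day 3, and the membrane factors, the exception in the other direction, stood at 1.06 ± 0.0470 and 1.38 ± 0.284 (SD, n = 3). For Ifitm3 the WT level went from 76.3, 75.6 and 34.1 CPM in crypts to 130.2, 124 and 99.8 at day 3, while in Mtgr1-/- it went from 82.4, 79.4 and 43.5 to 24.7, 6.78 and 22.6.

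**Figure D5:**
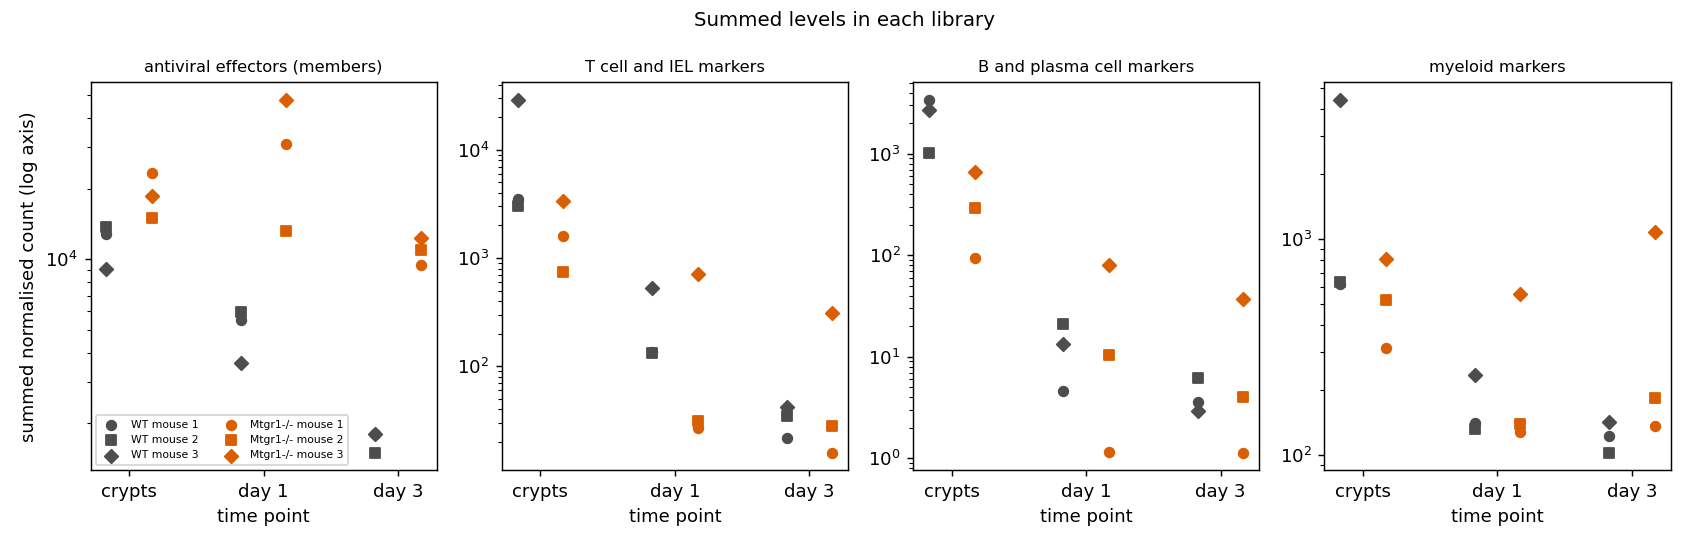
Vertical axes, summed normalized counts on a log scale for the 20 antiviral effector members and for 3 immune marker lists; horizontal axes, time point. Each symbol is 1 library, gray for WT and orange for Mtgr1-/-, with 1 shape per mouse. The effectors separate the genotypes at days 1 and 3, while at day 3 Mtgr1-/- mice 1 and 2 hold T cell sums of 15.9 and 27.8, within or below the 21.5 to 41.6 of WT.

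T cell RNA was low in the enteroids of Mtgr1-/- mice 1 and 2, where the members were also higher. Their T cell sums were 26.8 and 31.3 at day 1, below the 131 to 534 of WT, and their myeloid sums of 127 and 139 lay beside 132 to 235 in WT. At day 3 their myeloid sums were 135 and 184, beside 102 to 141 in WT, so mouse 2 lay above every WT library. Of 5 myeloid markers tested at day 3, Csf1r and Cd68 were higher in Mtgr1-/-, and the median log2 fold change was 2.35. Their part in the member differences was not tested. Trac and Trdc, constant chains of the T cell receptors, and Igkc, that of the antibody light chain, were not listed at any time point. The summed antiviral effectors in the same libraries were 30889 and 13128, above the 3629 to 5964 of WT. In crypts the effector sum was 12867, 13731 and 9062 in WT, where the lowest value belongs to the immune-rich library, and 23295, 15010 and 18605 in Mtgr1-/-.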

How the data were processed

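RNA was measured by single-end stranded mRNA sequencing in 18 libraries. The authors used fastp 0.20.0 for trimming and Salmon 1.3.0 for quantification against a mouse GENCODE M21 transcriptome and deposited, for each time point, a signal per gene, the normalized count of DESeq2 1.26.0 (gene counts divided by 1 size factor per library). Deposited columns with the authors' own fold changes, errors and p-values were not used. Each table was normalized on its own.

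Genotypes were compared with limma 3.58.1 (R 4.3.3) on log2(normalized count + 1), 3 libraries against 3, two-sided, with a trended prior, for genes with a mean of at least 10, and Benjamini-Hochberg adjustment ran over all genes tested, with a threshold of 0.05. Fold changes are on the log2(normalized count + 1) scale, which understates changes of low genes, and are given ± SE. The joint model across time points gave each mouse a random effect (correlation 0.00576). Levels across time points are CPM of the summed normalized counts (Python 3.11.15). In all 18 libraries 100% of values lay within 0.01 of a whole multiple of the library's step. Whole reads were taken as recovered for 16 of them and tested with edgeR 4.0.16 and DESeq2 1.42.0. WT crypt 2 and Mtgr1-/- day 3 mouse 2 were left out of those 2 tests, although they met the same limit. Depth bears on counting error only. The spread between mice of 1 group exceeded counting error in each pair of libraries compared (chi-square per gene 15.5 to 151). The genotype fit at each time point and the change of the genotype difference from crypts to day 1 were tested on simulated data. The other steps were not. RefSeq promoter windows (GRCm38.p6) were searched for the 2 motifs.

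Members and lists were chosen with earlier results of these data known. Named genes were STAT, IRF and sensor members, the 5 largest rises and falls at each time point among those called without overlap, the highest member of each role and the 3 largest changes between time points. Members that are not reported here singly remain in the counts. Other named genes, such as Gbp4, Gbp9, Ifi44, Irgm2, Bst2, Isg20, Oas1f, Ifi27, Ifi30 and Ifi35 and some genes of the pathway and marker lists, were chosen after their values were seen. Replicate numbers are the labels' mouse numbers, and mice of different genotypes sharing a number deviated together at day 1 (correlations 0.116, 0.231 and 0.216) but not at day 3 (-0.0067, -0.0023 and -0.016), and in crypts the values were 0.0764, 0.274 and 0.346. Alternatives covered the pseudocount, the filter, the scaling, the mouse number as a block, the count tests and each library left out.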

Additional observations from a re-analysis of the deposited data

Results flagged for a closer look

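The following results were singled out because the genotype effect differed between time points by a test of that difference (limma, 18 libraries). From crypts to day 1 the difference moved up for 32 members and down for 3, and the largest moves were those of Gbp2 (3.82 on the log2 scale), Ifit1 (2.93) and Zbp1 (2.93). From crypts to day 3 it moved up for 26 members and down for 4, with the largest fitted changes for Gvin1 (-5.42), Gbp2 (4.24) and Oas3 (3.94). The Gvin1 value rests on readings of 0 in Mtgr1-/- mice 1 and 2 at day 3, and the sum over Gvin1 and its 3 listed neighbors changed by -0.95. Whether reads were split among the copies was not tested. The Gbp2 value to day 3 rests on day 3 levels that were too low to be tested at that time point alone.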

How the results depend on the processing

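At days 1 and 3 the counts of members called stayed within 1.5 times of the reported ones under every alternative run, with 35 to 43 higher and 5 lower at day 1 and 36 to 41 higher and 4 to 6 lower at day 3 when 1 library was left out. With the mouse number as a replicate block the day 1 counts were 42 and 5 and the day 3 counts 40 and 5. Crypt counts were less steady. Members higher numbered 2 with the replicate block (and 2 lower), 7 with DESeq2 and 0 to 3 with 1 library left out, with 3 without Mtgr1-/- mouse 2. Members lower numbered 1 with edgeR, 9 with DESeq2 and 1 to 3 with 1 library left out, with 1 without WT mouse 1 or WT mouse 2. For the change of the genotype difference, leaving out 1 mouse gave 19 to 42 members up and 3 down from crypts to day 1, 16 to 29 up and 2 to 5 down from crypts to day 3, and 0 to 2 down from day 1 to day 3, with 2 without Mtgr1-/- mouse 2. Under CPM 5 members moved down from crypts to day 1. For Gvin1 the change from crypts to day 3 was -0.95 when summed with its 3 listed neighbors, an alternative chosen after seeing the data, as was CPM. The cause was not tested. Over the alternatives run for named genes, CPM aside, 1288 values kept their side of the threshold, 12 lost the call and 15 gained one. Among the 1288 are uncalled values that changed sign, as for Ifitm3 in crypts (0.148, with alternatives from -0.226 to 0.387). The median ratios over time under the deposited normalized count were 0.361 and 0.134 in WT and 1.08 and 0.464 in Mtgr1-/-.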
